A study of Mus musculus with 23 samples.

Results

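The comparison described here is that of medullary thymic epithelial cells (mTECs) low for MHC class II (mTEClo) from Aire knockout (KO) mice with the same cells from wild-type (WT) mice. It was chosen by its samples, with no measured value used, and took 12 of the 23 bulk RNA sequencing libraries of the series, 4 of KO mTEClo and 8 of WT mTEClo. All genes entered it, and 19310 of 53402 gene identifiers had enough counts to be tested. The mice were C57BL/6, and the KO is labelled only as an Aire knockout, with no allele, exon or promoter named. The digested thymus had been sorted for cells negative for DAPI, CD45 and Ly51, positive for EpCAM and low for MHC class II. Of the WT mTEClo libraries, 5 were of 4 weeks and 3 of 5 weeks, and 5 were male and 3 female. All KO mTEClo libraries were male, with replicates 1 and 2 of 5 weeks and replicates 3 and 4 of 6 weeks. The other 11 libraries were of mTECs high for MHC class II (mTEChi), 7 of WT (2 of 4 weeks and 5 of 5 weeks, 5 male and 2 female) and 4 of KO (all male, 2 of 5 and 2 of 6 weeks).

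Aire is a nuclear regulator made mostly by mature, MHC class II high mTECs, where it is known for raising the transcription of genes otherwise restricted to peripheral tissues. The low gate is a mixture. It holds immature mTECs, mTECs past the Aire stage, and so-called mimetic cells that take on programs of peripheral cells such as ciliated, tuft, microfold, keratinocyte-like or muscle-like cells. A further feature of mTECs is a constitutive program of interferon-stimulated genes, which in other tissues follows infection.

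Levels are given as CPM, the count of a gene relative to the total of its library, with totals scaled by trimmed mean of M values (TMM) factors. They are not divided by gene length, so they compare libraries and not genes. A gene was called at a Benjamini-Hochberg adjusted p under 0.05 in edgeR's quasi-likelihood test over all tested genes, and changes are log2 differences, KO minus WT, with their standard error (SE). The labels do not say that each library came from a separate animal, so the p-values measure the spread between these libraries, which may be technical.

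Markers of the gate were read first. Epcam, the epithelial adhesion molecule used as a gate, lay between 227 and 324 CPM in WT and between 233 and 264 CPM in KO mTEClo. Krt14, a keratin of immature mTECs, lay at 255 to 464 CPM in WT mTEClo and at 93.6 to 110 CPM in WT mTEChi. The class II chain H2-Aa, low by the gate, lay at 275 to 483 CPM in WT mTEClo and at 546 to 812 CPM in WT mTEChi. Ptprc, which encodes CD45, was present at 13.6 to 26.1 CPM in WT and at 4.38 to 16.8 CPM in KO mTEClo. Enpep, which encodes Ly51, was between 5.09 and 6.90 CPM in WT and between 4.87 and 15.3 CPM in KO.

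Library totals were 1628778 to 3883437 counts in WT and 1639231 to 3938588 in KO mTEClo. The 5-week KO pair held 1639231 to 1883769 counts and the 6-week pair 3272356 to 3938588. Mitochondrially encoded genes had no counts in 6 libraries, the 6-week KO mTEClo pair and all 4 KO mTEChi libraries, and took 0.261% to 0.527% of the counts elsewhere. These 6 libraries also differed in other genes. Of all tested genes, 3 had counts in each of the 6 and none in the other 17, and all 3 were called higher in KO mTEClo. Another 10 were at 0 in the 6 and above 0 in the other 17, with 0 called lower. The count of 10 did not leave out the mitochondrially encoded genes, of which 9 were tested, so it may largely repeat them. Why the 6 libraries differed was not tested. On the second principal component of the 12 libraries (19.0% of the variance), the 5-week KO pair lay at 28.1 and 36.4, the 6-week pair at -25.4 and -33.2, and the WT libraries between -8.36 and 3.34. Both KO pairs lay on the same side of WT on the first component (42.8%). Results are therefore given also for a fit of 5-week libraries alone, with KO replicates 1 and 2 against WT replicates 6, 7 and 8. Those WT libraries held 2998595 to 3369652 counts, more than the KO pair, so depth and genotype cannot be told apart in that fit. Age, depth and the missing mitochondrial counts cannot be told apart between the KO pairs.

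Aire itself (ENSMUSG00000000731, GRCm38 chr10:78030022-78043610) was the first check of the labels. WT mTEClo libraries held 19.6, 76.7 and 128 CPM as the lowest, median and highest value. The 5-week KO pair held 7.58 and 3.13 CPM, and the 6-week pair 0 and 0.243 CPM. The highest KO value was under the lowest WT value, and the log2 change was -5.20 (SE 0.70, adjusted p = 3e-05). The change was -4.18 at 5 weeks, and -8.65 without the 5-week pair. Reads over a deleted gene can come from the part left in place, and the labels do not name the deleted part. WT mTEChi held 753 to 921 CPM, so even the highest WT mTEClo library was far below that gate.

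In KO mTEClo 2315 genes rose (12% of those tested) and 1871 fell (9.69%), and the median log2 change of all tested genes was 0.006. All 4 KO libraries lay above all 8 WT libraries for 1131 genes (5.86%) and below them for 1119 (5.79%). A change of over 2-fold was called for 825 genes that rose and 681 that fell. At 5 weeks 1461 genes rose (7.48%) and 1242 fell (6.35%). Of the 2301 risers also tested at 5 weeks, 2170 had the same sign, 854 were called in that direction and 2 in the other. Of the 1846 tested fallers, 1817 had the same sign, 718 were called in the same direction and 0 in the other. With age in weeks as a linear term, 825 genes rose and 679 fell. Protein-coding genes made up 80.9% of tested genes, 87.8% of risers and 80.1% of fallers. In bulk libraries fewer cells of a type and less RNA per cell cannot be told apart, which holds for every change below.

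The gene lists here and below are set beside these shares, 12% higher and 9.69% lower (7.48% and 6.35% at 5 weeks), without a test of their own. The 3 lists of interferon-stimulated genes, the RNA sensors and the 2 cilium lists had at least 70.0% of their tested members lower. Microfold genes followed with 9 of 16 lower (5 lower and 3 higher at 5 weeks), and cortical epithelium and immediate early genes had the most members higher, 10 of 18 and 15 of 29. Of the testis and sperm list 8 of 27 members could be tested, of which 2 rose and 1 fell, and at 5 weeks 0 rose and 1 fell.

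**Figure D1:**
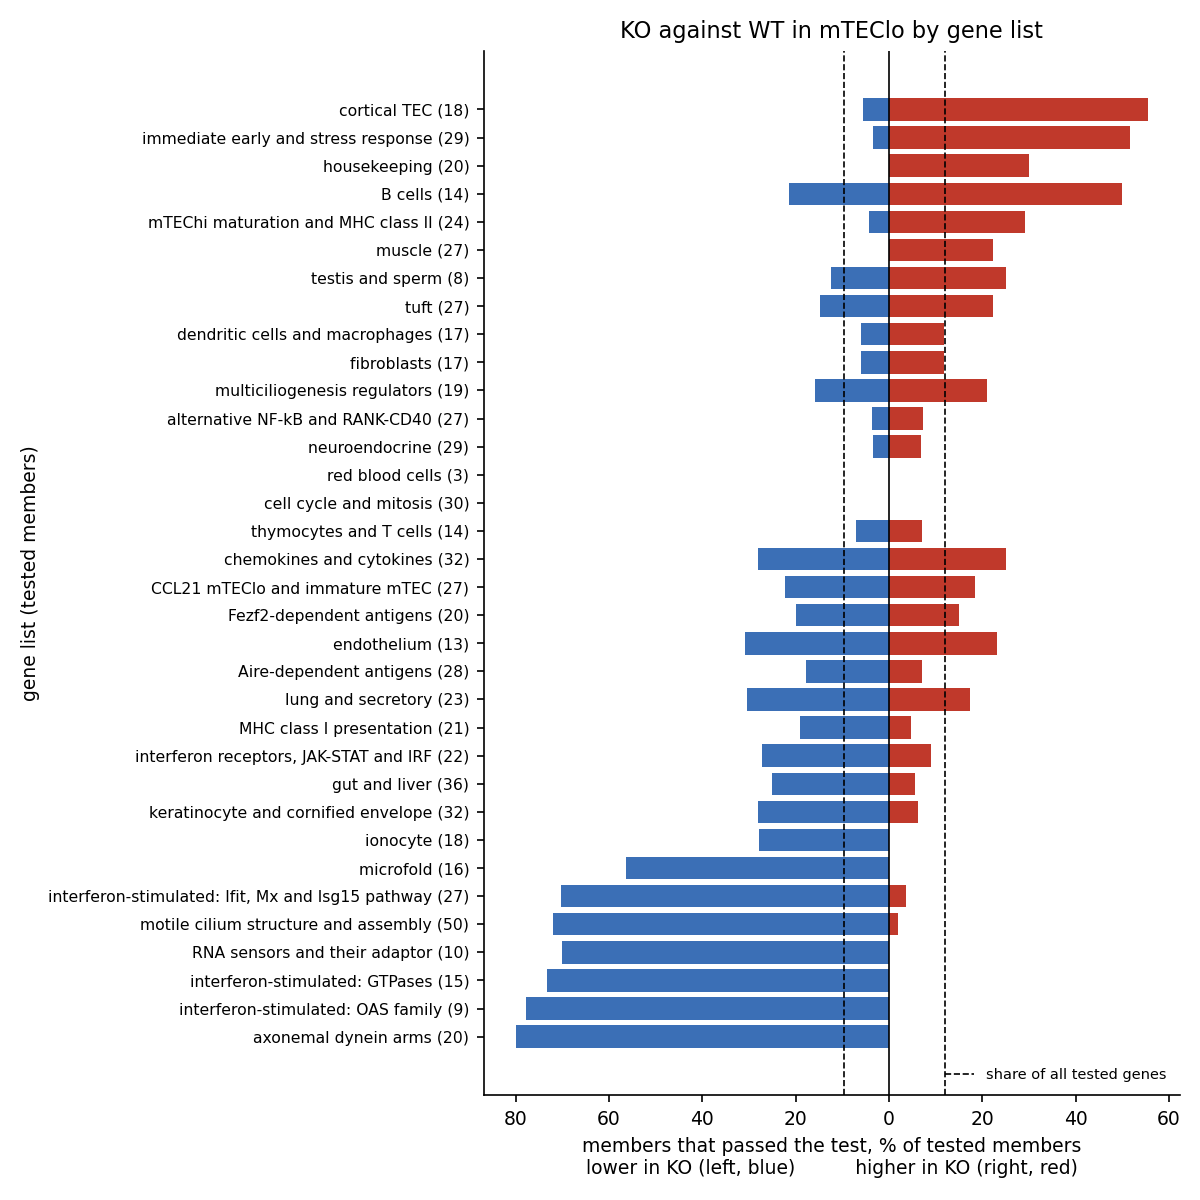
Share of the tested members of each gene list that passed the test in KO against WT mTEClo, in % (horizontal axis, lower to the left and higher to the right), with the number of tested members in brackets. The dashed lines mark the shares over all tested genes, 9.69% lower and 12% higher. The dynein arm bar (16 of 20 members) reaches furthest to the left and the cortical TEC bar (10 of 18) furthest to the right.

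Genes of the motile cilium fell as a block. This cell organelle is built on an axoneme, whose dynein arms are the motors and whose radial spokes and nexin-dynein regulatory complex control the beat. In mTECs such transcripts are known from ciliated mimetic cells. Over both lists 52 of 70 tested members fell and 1 rose, with a median log2 change of -1.47, against 9.69% of all tested genes lower. A negative sign was found for 67 of the 70, and 44 of the 52 that fell did so by over 2-fold. All KO libraries lay below all WT libraries for 45, against 5.79% of all tested genes. At 5 weeks 36 of 69 were lower and 1 higher, against 6.35% and 7.48% of all genes tested. The summed level of the 2 lists was 1127 to 1794 CPM in WT, 571 to 604 CPM in the 5-week and 687 to 698 CPM in the 6-week KO pair.

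Among the motors 16 of 20 tested dynein arm genes fell and none rose, with a median of -1.04. Dnah3 (ENSMUSG00000052273, GRCm38 chr7:119922671-120095280), an inner arm heavy chain, had 18.6, 27.1 and 48.9 CPM as lowest, median and highest WT value. It had no counts in either 5-week KO library and 0.596 and 0.486 CPM in the 6-week pair. The KO libraries were thus all at or near 0, while no WT library was under 18 CPM, and the log2 change was -6.21 (SE 0.59, adjusted p = 4.6e-08). Dnah6, another inner arm chain, fell from a median of 44.8 CPM (32.6 to 71.8) to 3.25, 2.50, 2.08 and 2.43 CPM, a log2 change of -4.20 (SE 0.33). Dnah10 went from 50.9 CPM (36.9 to 84.8) to 3.25, 5.01, 3.28 and 2.19 CPM (log2 change -4.07), and Dnah12 from 26.8 CPM (16.8 to 45.6) to 0.541, 1.88, 1.19 and 0.243 CPM (-4.99). The 4 chains passed at 5 weeks as well, with log2 changes of -8.76, -3.44, -3.30 and -3.94 in the order named.

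Falls differed in size among the motors. Dnah5 and Dnah9, outer arm heavy chains, had log2 changes of -0.93 (SE 0.19) and -0.97 (SE 0.15). Dnah5 kept 82.8, 48.8, 103 and 117 CPM in KO against 130 to 218 CPM in WT, and Dnah9 kept 65.5, 67.0, 64.0 and 44.9 CPM against 92.4 to 143 CPM. All KO libraries still lay below all WT libraries for both genes. The near-identical copies Dnah7a, Dnah7b and Dnah7c could exchange reads, so their changes of -2.74, -1.08 and -3.59 are uncertain as single values, and none of them passed at 5 weeks (adjusted p = 0.0865, 0.224 and 0.0506).

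Of the other cilium genes 36 of 50 fell, with a median of -1.52, and Dnaaf3, a dynein assembly factor, rose by 0.43 (adjusted p = 0.0497). Spag17 and Hydin, both of the central pair apparatus, had changes of -5.63 and -2.50. Hydin had 21.9, 29.5 and 38.9 CPM as lowest, median and highest WT value and 1.62, 3.13, 7.74 and 5.83 CPM in KO. Cfap65 fell from 35.7 CPM (17.6 to 54.2) to 1.08, 0.626, 2.38 and 0.243 CPM, a change of -4.85 (SE 0.47). Rsph4a, a radial spoke head protein, fell by 2.11 on the log2 scale, and Drc1, of the nexin-dynein regulatory complex, fell by 1.43. Ccdc39 and Ccdc40, which set the repeat of the axoneme, had changes of -1.22 and -1.20, the second of which was not called at 5 weeks (adjusted p = 0.17).

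A list of 19 genes taken as upstream regulators of the cilium program was mixed, with 3 lower and 4 higher (15.8% and 21.1%, against 9.69% and 12% of all genes). At 5 weeks 2 were lower and 2 higher. Foxj1 (GRCm38 chr11:116330704-116335399), the transcription factor of motile cilia, had 27.8, 34 and 38.2 CPM in WT and 9.20, 8.14, 9.83 and 6.80 CPM in KO. No library overlapped, and the log2 change was -1.84 (SE 0.35, adjusted p = 0.00055), with -1.73 and an adjusted p of 0.074 at 5 weeks. Deup1, which helps to multiply centrioles, fell by 2.98 (adjusted p = 0.00308), from 2.29 to 10.2 CPM to 0, 0, 0.893 and 0.486 CPM, and was not called at 5 weeks (adjusted p = 0.188). Rfx3, of the factor family that binds the X-box, fell by 0.31, and Mcidas, a switch of multiciliogenesis, had a change of -2.88 without passing (adjusted p = 0.0648). Trp73, another such regulator, was at 12.8 to 18.9 CPM in WT and 21.1 to 25.6 CPM in KO (0.46, adjusted p = 0.143). The risers were Tfdp1 (0.47), Rfx5 (0.38), E2f5 (0.44) and Tbata (1.19). Tbata also counts among the cortical genes below, and Rfx5 and E2f5 did not pass at 5 weeks (adjusted p = 0.285 and 0.326). A part of Rfx5 or Tbata in the cilium program was not tested, so the share higher may include genes that do not regulate it.

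**Figure D2:**
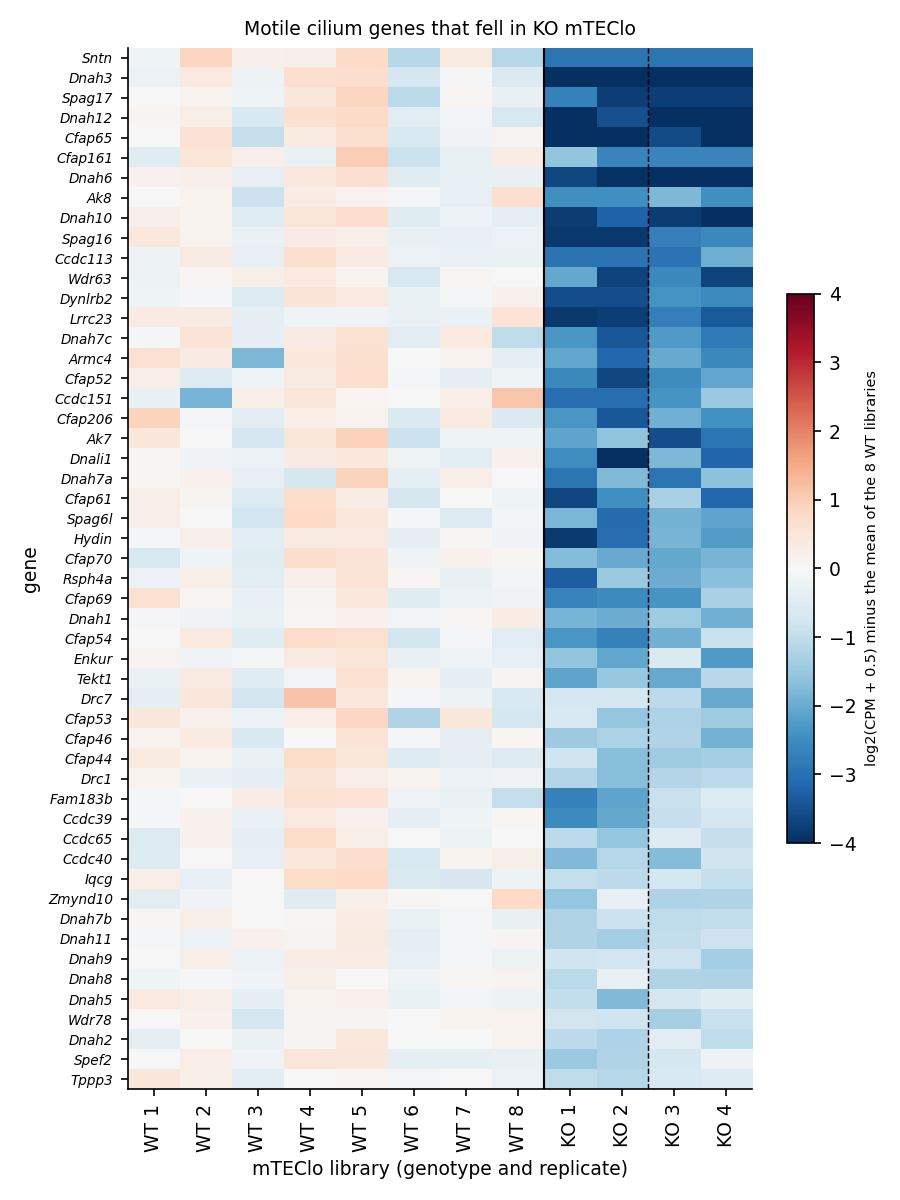
Heat map of the 52 motile cilium genes that fell (rows, sorted by log2 change) in the 12 mTEClo libraries (columns), as log2(CPM + 0.5) minus the mean of the 8 WT libraries, with values beyond 4 in either direction drawn at the end of the scale. The dashed line splits the 5-week KO pair (KO 1 and KO 2) from the 6-week pair (KO 3 and KO 4), and both pairs are blue along the rows.

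Promoter sequences were looked at where members moved together. The RefSeq windows used run from 250 bases before to 50 bases after a start site on GRCm38.p6, and 44 of the 52 cilium genes that fell had one. The core GTTGCCNNG of the X-box, the element bound by RFX factors, was found on either strand in 14 of the 44 (31.8%), in 3 of the 14 other tested cilium genes with a window (21.4%) and in 5.74% of 27025 genes with a window of this length. Among the genes named above, Dnah6, Dnah12, Spag17 and Hydin had no core in their windows. The 200 bases before the start are shown in gene orientation for 3 fallen genes, with the X-box core in capitals on the strand shown. These genes were picked for a small p and for a core lying wholly within those bases. The stretches lie at GRCm38.p6 chr5:124724885-124725084 (plus strand), chr6:124779728-124779927 (minus strand) and chr1:69826770-69826969 (plus strand).
Dnah10: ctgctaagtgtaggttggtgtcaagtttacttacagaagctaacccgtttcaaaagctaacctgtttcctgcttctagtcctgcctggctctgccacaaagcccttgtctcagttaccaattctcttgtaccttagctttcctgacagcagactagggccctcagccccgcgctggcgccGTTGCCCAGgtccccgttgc
Lrrc23: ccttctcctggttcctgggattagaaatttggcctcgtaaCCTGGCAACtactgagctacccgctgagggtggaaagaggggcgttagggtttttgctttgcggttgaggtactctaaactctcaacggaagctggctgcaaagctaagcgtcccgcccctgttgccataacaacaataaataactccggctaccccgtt
Spag16: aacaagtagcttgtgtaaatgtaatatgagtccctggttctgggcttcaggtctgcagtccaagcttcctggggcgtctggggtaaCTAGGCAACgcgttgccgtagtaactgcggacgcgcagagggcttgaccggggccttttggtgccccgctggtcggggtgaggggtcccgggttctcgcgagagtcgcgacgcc
In Lrrc23 and Spag16 the core reads on the opposite strand. Lrrc23, a radial spoke protein, went from 11.2 to 21.9 CPM in WT to 0.541, 0.626, 1.79 and 0.971 CPM in KO, and Spag16, of the central pair, from 5.37 to 9.19 CPM to 0, 0, 0.596 and 0.728 CPM. Their log2 changes were -3.64 and -3.87. A match of letters is a description and shows no binding.

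Interferon-stimulated genes formed the other large block of falls. Interferons signal through JAK kinases to STAT factors and IRF9, which bind the interferon-stimulated response element (ISRE) of antiviral genes. Over the 3 lists 37 of 51 tested members fell and 1 rose (Ifi27, 0.32, adjusted p = 0.0562 at 5 weeks), with a median log2 change of -0.82. Of all tested genes 9.69% fell. Among the 37, 35 had all KO libraries below all WT libraries, against 5.79% of all tested genes, and 14 fell by over 2-fold. A negative sign was found for 45 of the 51. At 5 weeks 36 of 51 were lower and 1 higher, against 6.35% and 7.48% of all genes tested, with a median of -0.91. Summed levels were 6184 to 6995 CPM in WT, 4144 to 4198 CPM in the 5-week and 4158 to 4267 CPM in the 6-week KO pair. With an age term 35 members fell, and the libraries of under and of over 2000000 counts, tested apart, gave 38 and 35. In mTEClo the first set holds the 5-week KO pair and WT replicates 1 and 2. The second holds the 6-week KO pair and the other WT libraries, so this split is also that of the KO pairs.

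Oligoadenylate synthetases make the messenger that activates RNase L, and 7 of the 9 family members fell, with a median of -0.64. Oas3 (ENSMUSG00000032661, GRCm38 chr5:120753098-120777661) had 166, 196 and 225 CPM as lowest, median and highest WT value and 53.6, 55.1, 68.5 and 47.6 CPM in KO. The 2 sets of libraries lay far apart, and the log2 change was -1.74 (SE 0.13, adjusted p = 1.3e-10) over all ages and -1.99 at 5 weeks. Oas2 fell by 2.08 (SE 0.17), from 106 to 162 CPM in WT to 26.0, 24.4, 30.1 and 30.1 CPM. Oas1b and Oas1g each fell by 0.83, and their near-identical Oas1 neighbours could share reads with them. Oasl2 was higher in level, at 588 to 818 CPM in WT and 493, 497, 433 and 449 CPM in KO, and fell by 0.55.

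Among the Ifit, Mx and Isg15 pathway genes 19 of 27 fell, with a median of -0.89. Mx1, an antiviral dynamin-like GTPase, went from 126, 142 and 155 CPM (lowest, median, highest) to 44.4, 48.8, 44.4 and 46.1 CPM, a change of -1.61 (SE 0.13). Ifit2, an RNA-binding inhibitor of translation, went from 43.1 to 62.1 CPM to 13.0, 11.9, 11 and 18.2 CPM (-1.89, SE 0.21). Trim30a, an antiviral ubiquitin ligase family member, changed by -1.32, Isg15, the ubiquitin-like modifier, by -1.17, and Rsad2, or viperin, by -1.31. Each of these passed at 5 weeks too. Usp18, a negative regulator of the pathway, fell by 0.33 and did not pass at 5 weeks (adjusted p = 0.271).

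Interferon-inducible GTPases, which attack vacuoles of intracellular pathogens, fell for 11 of 15 members, with a median of -0.82. Gbp3 had 151 to 180 CPM in WT and 63.3, 65.1, 66.1 and 62.6 CPM in KO (-1.33, SE 0.11, adjusted p = 6.4e-10). Iigp1 had 269 to 302 CPM in WT and 135, 118, 132 and 141 CPM in KO (-1.12, SE 0.11). Spread within each genotype was small beside these differences. Gbp7 and Irgm2 changed by -0.98 and -0.92. GTPases of the Gbp cluster have similar sequences, so single values can be affected by shared reads.

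**Figure D3:**
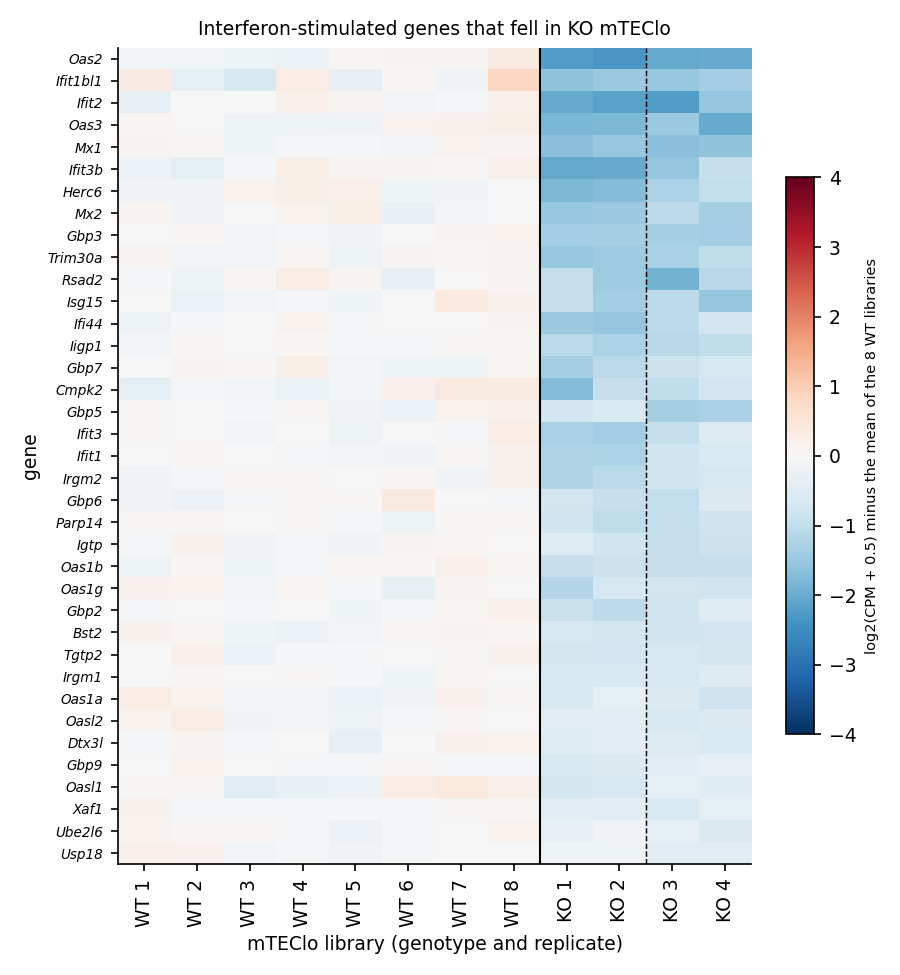
Heat map of the 37 interferon-stimulated genes that fell (rows, sorted by log2 change) in the 12 mTEClo libraries (columns), as log2(CPM + 0.5) minus the mean of the 8 WT libraries, on the colour scale of the cilium map. All 4 KO columns are blue for most rows, and Oas2 (-2.08) is among the darkest.

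Sensors and signal transducers of the pathway were read from lists of their own. Of 10 tested RNA sensors and adaptor genes 7 fell and none rose, and 6 fell at 5 weeks. Eif2ak2, the kinase PKR, fell by 1.01, Zbp1 by 0.74, and Ifih1 and Ddx58, the cytosolic sensors MDA5 and RIG-I, by 0.72 each. Ddx58 went from 316 to 362 CPM to 216, 205, 215 and 204 CPM, while the adaptor Mavs had 39.0 to 57.9 CPM in WT and 49.5 to 71.5 CPM in KO (adjusted p = 0.234). Of 22 receptor, JAK-STAT and IRF genes 6 fell and 2 rose, and at 5 weeks 6 fell and 3 rose. Irf7 fell by 0.78 (SE 0.12), from 211 to 285 CPM to 153, 127, 146 and 128 CPM, Stat2 by 0.54 and the receptor chain Ifngr1 by 0.52.

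In the opposite direction, Socs1, an inhibitor of JAK signalling, rose by 1.14 (SE 0.24), from 11.4 to 27.3 CPM to 44.4, 41.3, 36.0 and 28.7 CPM. Irf8 rose by 0.78, with 257 and 231 CPM in the 5-week pair and 136 and 109 CPM in the 6-week pair against 78.1 to 122 CPM in WT, so that the 6-week pair overlapped with WT. None of the 10 listed interferon genes reached the minimum for a test, and 7 of them, among them Ifnb1, had no counts in any of the 12 libraries. Over the group, 3 counts correspond to 0.122 CPM in WT and 0.275 CPM in KO mTEClo, the limit that a count of 0 allows, for counting error only.

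ISRE cores were counted in the promoter windows in the same way. The core GAAANNGAA was present on either strand in 20 of 28 fallen interferon-stimulated genes with a window (71.4%), in 3 of 7 other tested members (42.9%) and in 9.76% of all 27025 genes. Crosswise, 3 of the 28 (10.7%) held the X-box core, and 4 of the 44 cilium genes (9.09%) held the ISRE core. The 200 bases before the start are shown for 3 fallen members, picked for a small p and for a core lying wholly within those bases. The ISRE core or overlapping cores are in capitals. The stretches are GRCm38.p6 chr5:120777660-120777859 (minus strand), chr3:142559844-142560043 (plus strand) and chr7:104465194-104465393 (minus strand).
Oas3: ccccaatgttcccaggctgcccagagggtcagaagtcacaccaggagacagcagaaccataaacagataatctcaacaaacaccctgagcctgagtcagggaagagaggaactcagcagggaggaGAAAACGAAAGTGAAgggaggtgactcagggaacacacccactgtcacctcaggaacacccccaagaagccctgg
Gbp3: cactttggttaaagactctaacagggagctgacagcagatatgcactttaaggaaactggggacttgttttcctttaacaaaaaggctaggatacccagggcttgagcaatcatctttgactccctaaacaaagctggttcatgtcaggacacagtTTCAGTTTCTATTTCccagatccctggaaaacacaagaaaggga
Trim30a: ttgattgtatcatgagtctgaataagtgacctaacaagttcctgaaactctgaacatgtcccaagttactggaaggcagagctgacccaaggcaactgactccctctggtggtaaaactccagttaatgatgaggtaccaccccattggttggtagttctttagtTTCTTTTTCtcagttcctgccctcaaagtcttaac
In Oas3, on the strand shown, the 2 overlapping cores begin 75 and 69 bases before the start, in Gbp3 44 and 38 bases before it, and in Trim30a 1 core begins 35 bases before it, the last 2 genes having it on the opposite strand.

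Other mimetic programs were more mixed, set beside 9.69% of all genes lower and 12% higher (6.35% and 7.48% at 5 weeks). Microfold cells are the antigen-sampling cells of mucosal epithelium, and 9 of their 16 tested genes fell and none rose. At 5 weeks 5 fell and 3 rose, the risers being Spib, Marcksl1 and Tnfrsf11b, and the median was -0.31 against -0.68 over all ages. Ccl20, the chemokine that draws CCR6-positive cells, went from 23.7, 55 and 75.2 CPM in WT to 10.8, 14.4, 14.3 and 5.83 CPM, a change of -2.36 (SE 0.31). It missed the threshold at 5 weeks (adjusted p = 0.0551), as did Serpinb6a, a protease inhibitor gene (-0.75, adjusted p = 0.1 at 5 weeks). Ccl9 changed by -3.06 and Pglyrp1, a peptidoglycan-binding protein, by -1.62. Gp2, a receptor for bacterial fimbriae, fell by 1.16, from 152 to 263 CPM to 96.3, 57.0, 134 and 103 CPM, and the factor Sox8 fell by 0.97. Spib, a factor of microfold and tuft cells, was not called over all ages (0.33, adjusted p = 0.161), with 362 and 381 CPM in the 5-week pair, 235 and 186 CPM in the 6-week pair and 192 to 275 CPM in WT.

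Of 32 keratinocyte and cornified envelope genes 9 fell and 2 rose, and at 5 weeks 6 fell and 2 rose. Krt10, a keratin of differentiating epidermis, went from 38.4, 84.5 and 153 CPM to 10.8, 9.39, 28.3 and 35.0 CPM, a change of -1.99 (SE 0.43). It did not pass at 5 weeks (adjusted p = 0.0501). Krt80 and Dmkn fell by 1.20 and 1.12 and passed at 5 weeks, and Sprr1b rose by 2.66 from levels of at most 2.87 CPM, which the 5-week pair (1.62 and 0.626 CPM) did not exceed. Of 36 gut and liver genes 9 fell and 2 rose, and at 5 weeks 6 fell and 3 rose. The acute phase protein genes Saa1 and Crp changed by -3.78 and -1.25. Crp went from 56.9 to 102 CPM to 18.9, 23.8, 34.8 and 44.4 CPM, and Cdx1, an intestinal homeobox gene, rose by 1.22 from 15.5 to 22.2 CPM to 45.5, 46.3, 36.6 and 36.4 CPM.

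Lung and secretory genes went both ways, with 7 of 23 lower and 4 higher, and 5 of 24 lower and 3 higher at 5 weeks. Muc5ac, a gel-forming airway mucin, had 7.20, 63.0 and 202 CPM as lowest, median and highest WT value and 3.25, 5.64, 2.98 and 1.94 CPM in KO. Its change was -4.82 (SE 1.02, adjusted p = 0.00235) with a wide spread in WT, and it did not pass at 5 weeks (adjusted p = 0.192). Cyp2f2, of club cells, fell by 1.13. The chitinase-like genes Chil3 and Chil4 rose by 3.50 and 2.86, and their sequences are similar enough to share reads. Chil3 had 1.27, 4.12 and 21.8 CPM in WT and 59.5, 52.6, 48.0 and 74.5 CPM in KO.

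Tuft genes split as well, with 6 of 27 higher and 4 lower over all ages and 2 higher and 5 lower at 5 weeks, so that the larger count changed sides. Pou2f3, the factor that defines tuft cells, was not called (0.44, adjusted p = 0.072), nor was Trpm5, their cation channel (0.07). Gng13, Hpgds and Alox5, of taste signalling and eicosanoid synthesis, rose by 1.25, 0.94 and 0.59, and of the 3 Hpgds alone passed at 5 weeks. Siglecf changed by -3.25, and Dclk1 by -0.54, with 427, 312, 508 and 544 CPM in KO against 564 to 757 CPM in WT. For ionocytes 5 of 18 genes fell and none rose (3 fell at 5 weeks), and the factor Foxi1 fell by 1.15, with 8.66, 1.88, 2.68 and 8.01 CPM in KO against 5.04 to 19.8 CPM in WT. Cftr, the chloride channel, fell by 0.84, and neither passed at 5 weeks (adjusted p = 0.227 and 0.0621). Of 29 neuroendocrine genes 2 rose and 1 fell, and at 5 weeks 2 of 28 rose and 4 fell. The sodium channel Scn9a rose by 2.07 (SE 0.16), from 3.31 to 7.79 CPM to 22.2, 19.4, 22.3 and 27.2 CPM.

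Muscle genes rose in 6 of 27 cases and fell in none, which stands against 12% and 9.69% of all genes, and at 5 weeks 7 of 30 rose and 1 fell. Acta1, skeletal actin, had 7.39, 18.5 and 25.2 CPM in WT and 106, 39.4, 28.0 and 67.0 CPM in KO (1.71, SE 0.34). Myog, the muscle differentiation factor, rose by 1.09, with 101 and 79.5 CPM in the 5-week pair, while the 6-week pair, at 31.9 and 30.1 CPM, lay within the WT range of 20.1 to 42.7 CPM. The summed level of the list was 986 to 1360 CPM in WT, 1940 to 2027 CPM in the 5-week and 838 to 988 CPM in the 6-week KO pair. Ttn, the longest of the contractile genes, took most of that sum, with 1269 and 1417 CPM at 5 weeks and 555 and 594 CPM at 6 weeks against 761 to 992 CPM in WT. The rise of the sum was thus limited to the 5-week pair.

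Tissue antigens were read from 2 lists. Of 28 tested antigens often cited as Aire-dependent 5 fell and 2 rose in mTEClo, against 9.69% and 12% of all genes. The median change was -1.29 (-1.22 with genes at 0 in a group set to their bound). In mTEChi 27 fell, against 28.0% of all genes. At 5 weeks 4 of 29 fell and 1 rose in mTEClo. Levels were low in mTEClo, and a gene could reach the minimum for a test through its counts in WT mTEChi alone. The numbers of falls in the 2 gates are thus not comparable. Ins2, an insulin gene, had at most 1.15 CPM in WT and 0 in every KO library, and it was not called (adjusted p = 0.115). Mucl2, a secretory protein gene, fell by 1.98, from a median of 1.20 CPM to at most 0.596 CPM, with an adjusted p of 0.108 at 5 weeks. Csn2, a casein gene, rose by 0.91, with 152 and 160 CPM in the 5-week and 77.4 and 85 CPM in the 6-week pair against 34.8 to 82.7 CPM in WT. Of 20 Fezf2-dependent antigens 4 fell and 3 rose, and at 5 weeks 1 fell and 1 rose. Fezf2, the other regulator of tissue antigens in mTECs, was not called (0.20, adjusted p = 0.249), with 161, 162, 122 and 120 CPM in KO against 87.3 to 143 CPM in WT.

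Cortical epithelial genes rose in 10 of 18 cases, with 1 fall and a median of 0.69, although the gate removes cells with Ly51. At 5 weeks 8 of 17 rose and 1 fell, with a median of 0.32. Psmb11, the thymoproteasome subunit, had 2.01, 3.16 and 14.4 CPM in WT and 16.2, 15.0, 20.8 and 16.0 CPM in KO (1.83, SE 0.34, adjusted p = 0.00028). No library overlapped, though WT replicate 1 stood alone near the KO values, and the change among libraries of under 2000000 counts was 0.78 and not called. Prss16, the thymus-specific serine protease, went from 35.9 to 48.2 CPM to 73.1, 109, 130 and 77.9 CPM (1.32, SE 0.16). Tbata (ENSMUSG00000020096, GRCm38 chr10:61171954-61188841), a thymus and brain gene that limits epithelial proliferation, had 34.9, 50.6 and 80.8 CPM in WT and 132, 131, 125 and 117 CPM in KO. Its change was 1.19 (SE 0.13, adjusted p = 2.2e-07) and 1.17 at 5 weeks. Tbata was higher in the other gate, at 250 to 307 CPM in WT and 382 to 456 CPM in KO mTEChi, so its expression is not particular to mTEClo. Dll4, the Notch ligand for T lineage commitment, rose by 1.00 and passed at 5 weeks, but Cxcl12 and Ackr4, which rose by 1.06 and 1.16, did not.

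Their rise came from the 6-week pair, with Cxcl12 at 56.8 and 71.4 CPM at 5 weeks, 150 and 161 CPM at 6 weeks and 44.6 to 65.7 CPM in WT. Other genes of that kind were the chemokine Ccl19, with 0 in every WT and 5-week KO library and 7.74 and 5.34 CPM in the 6-week pair, and the cytokine Il33. Il33 had 2.17 and 1.88 CPM at 5 weeks, below the 6.38 to 15.0 CPM of WT, and 36.3 and 61.9 CPM at 6 weeks. The fibrillar collagen Col3a1 had 16.8 and 15.7 CPM at 5 weeks and 57.8 and 37.4 CPM at 6 weeks against 5.61 to 16.8 CPM in WT. Over all genes called, 239 risers and 103 fallers had the 6-week pair beyond every WT library and the 5-week pair within the WT range.

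Genes of mTEChi maturation and MHC class II rose in 7 of 24 cases, against 12% of all genes, and Aire was the 1 that fell. At 5 weeks 17 of 24 rose, against 7.48% of all genes tested. The list summed to 2226 to 3705 CPM in WT, 4425 to 4829 CPM in the 5-week and 2423 to 2778 CPM in the 6-week pair. H2-Ob, a chain of the peptide-loading modulator H2-O, had 12.1, 15.8 and 20.7 CPM in WT and 38.4, 39.4, 32.2 and 35.9 CPM in KO (1.15, SE 0.14). Hdc, histidine decarboxylase, had 28.3, 47.0 and 69.9 CPM in WT, 283 and 288 CPM in the 5-week and 94.1 and 92.3 CPM in the 6-week pair (1.84, SE 0.28). Both pairs lay above WT, the 5-week pair by far. For the class II chain H2-Aa the pairs went apart, with 533 and 617 CPM at 5 weeks and 332 and 302 CPM at 6 weeks against 275 to 483 CPM in WT. It was not called over all ages (0.23, adjusted p = 0.359) but was at 5 weeks (0.65, adjusted p = 1.2e-06). Among libraries of under 2000000 counts its change was 0.30 (adjusted p = 0.00506), with 441 and 483 CPM in WT replicates 1 and 2. Cd80, the costimulatory ligand, behaved likewise, with 0.30 (adjusted p = 0.32) over all ages, 1.04 at 5 weeks (adjusted p = 0.00194) and -0.26 without the 5-week pair. Under 2000000 counts the change of Cd80 was 0.53 (adjusted p = 0.0502). The part of depth in these 5-week rises was not tested.

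Genes of the CCL21-type and immature mTEC list fell in 6 of 27 and rose in 5 of 27 cases, and at 5 weeks 4 of 26 fell and 7 rose. Ccl21a, the chemokine that marks them, had 23.7 to 40.8 CPM in WT and 40.6, 39.4, 23.5 and 20.2 CPM in KO, with a fitted change near 0 whose sign turned between alternatives, and near-identical copies of the gene can take its reads. Fbn1, a matrix fibrillin, fell by 1.07, from 448 to 621 CPM to 279, 302, 224 and 211 CPM. Tgfbi and Ly6a fell by 0.89 and 0.51. Pax1, a factor of pharyngeal pouch epithelium, rose by 0.82, from 96.2 to 142 CPM to 188, 188, 215 and 215 CPM. Krt15, a basal keratin, rose by 1.44 (adjusted p = 0.0715 at 5 weeks) and Foxn1, the thymic epithelial factor, by 0.67.

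Chemokines and cytokines had 9 of 32 members lower and 8 higher, and 7 lower and 3 higher at 5 weeks. The interferon-inducible ligands of CXCR3, Cxcl9, Cxcl10 and Cxcl11, fell by 0.86, 0.55 and 1.23, of which the second did not pass at 5 weeks (adjusted p = 0.0842). Il7, the thymocyte survival cytokine, fell by 0.43, from 242 to 305 CPM to 183, 193, 206 and 238 CPM. Among 21 genes of class I presentation 4 fell and 1 rose over all ages, whereas 3 fell and 5 rose at 5 weeks. Nlrc5, the class I transactivator, fell by 0.56 and passed at 5 weeks. Of 27 genes of alternative NF-kB and RANK-CD40 signalling 2 rose and 1 fell, against 12% and 9.69% of all genes. At 5 weeks 7 rose and none fell, against 7.48% and 6.35%.

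Signs of stress moved with genotype too, and signs of general level differed between the KO pairs. Of 29 immediate early and stress genes 15 rose and 1 fell, against 12% and 9.69% of all genes. At 5 weeks 11 rose, against 7.48% of all genes. Fos had 70.3, 89.0 and 125 CPM in WT and 150, 154, 152 and 179 CPM in KO (0.81, SE 0.21), and Atf3 and Dusp1 rose by 1.28 and 1.05. Housekeeping genes rose in 6 of 20 cases and fell in none, and 13 rose at 5 weeks. They summed to 2555 to 3643 CPM in WT, 4060 to 4587 CPM in the 5-week and 2721 to 2967 CPM in the 6-week pair. The sums of the 6-week pair thus lay within the WT range. Gapdh had 16.3 to 23.6 CPM in WT, 52.5 and 46.3 CPM at 5 weeks and 34.3 and 27.7 CPM at 6 weeks (1.07, SE 0.18). Of 30 cell cycle genes 0 were called in edgeR's quasi-likelihood test over all ages and 0 in DESeq2, 2 had an unadjusted p under 0.05, and 8 rose at 5 weeks. Their summed level was 495 to 780 CPM in WT, 734 to 1133 CPM in the 5-week and 205 to 294 CPM in the 6-week pair. The part of these differences in the results above was not tested.

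Markers of cells that the sort should remove were counted as well, beside 12% of all tested genes higher and 9.69% lower (7.48% and 6.35% at 5 weeks). Of 14 tested B cell genes 7 rose and 3 fell (5 of 15 and 1 at 5 weeks), and the list summed to 202 to 280 CPM in WT and 219 to 287 CPM in KO. Ighm, the IgM heavy chain, had 3.36, 8.82 and 10.9 CPM in WT and 36.3, 25.7, 29.8 and 34.7 CPM in KO (1.92, SE 0.19), while Ms4a1, or CD20, was at no more than 0.787 CPM in WT and 1.25 CPM in KO. Of 14 thymocyte and T cell genes 1 rose (Tcf7, 1.13) and 1 fell (Rag1, -2.36), with sums of 153 to 173 CPM in WT and 152 to 179 CPM in KO, and the T cell receptor partner gene Cd3e at no more than 1.15 and 0.728 CPM.

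The 17 dendritic cell and macrophage genes had 2 risers, Lyz2 (1.38) and Cd68 (1.37), and 1 faller, Itgam (-1.23). These shares, 11.8% and 5.88%, were near those of all tested genes, 12% and 9.69%. Lyz2 had 18.6 to 43.9 CPM in WT and 89.3, 77.6, 78.9 and 110 CPM in KO, and the list summed to 115 to 154 CPM in WT and 180 to 224 CPM in KO. Itgax and Adgre1, defining genes of these cells, were at no more than 2.44 and 3.30 CPM in WT and 2.17 and 1.62 CPM in KO. Of 17 fibroblast genes 2 rose and 1 fell (0 and 2 at 5 weeks), again near the shares of all genes. They summed to 753 to 993 CPM in WT and 559 to 795 CPM in KO. Of 13 endothelial genes 3 rose and 4 fell (1 and 2 at 5 weeks), with sums of 187 to 242 CPM and 174 to 233 CPM, and Cdh5, or VE-cadherin, had no counts in KO and at most 0.300 CPM in WT. Of the 3 tested red blood cell genes 0 were called in edgeR (1 in DESeq2, 0 at an unadjusted p under 0.05), and the sums were 9.29 to 19.5 CPM and 9.71 to 15.7 CPM. The part of such cells in the results was not tested.

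The largest changes were picked by rule among called protein-coding genes, with no overlap between libraries and a mean of at least 5 CPM on the higher side, 760 lower and 831 higher. Of the 12 largest falls 4 were in the cilium lists, and 10 passed at 5 weeks, the exceptions being Tmem212 and Muc5ac. Spata18, a mitochondrial quality control gene also known from sperm, Sec14l3, a lipid-binding protein, and Rp1, a microtubule protein of photoreceptors, had no counts in any KO library. Their WT ranges were 4.20 to 16.8, 1.53 to 13.5 and 3.05 to 11.5 CPM. Against 3 counts over the KO group, Spata18 was at least 34.4-fold lower. The bounds for Sec14l3 and Rp1 were at least 28.4-fold and at least 24-fold. Ccdc180 and Spag17 had 1 count in KO, ratios of 114 (95% counting interval 20.2 to 4512) and 76.0 (13.5 to 3019), and Crocc2, of the ciliary rootlet family, went from 17.8 to 51.0 CPM to 0.541, 1.25, 0.893 and 0.971 CPM (-4.76, SE 0.46).

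Of the 12 largest rises 11 passed at 5 weeks, and Pou3f3 did not (adjusted p = 0.0595). Ctla4, the inhibitory CD28 family receptor, went from 0, 1.03 and 3.45 CPM to 10.3, 11.9, 14.3 and 23.8 CPM (3.54, SE 0.38). Fgf10, a mesenchymal growth factor, and Lrat, which esterifies retinol, rose by 3.11 and 3.14. Ucma, a cartilage matrix protein, rose by 3.08 from 1.91 to 5.61 CPM to 29.2, 28.2, 39.3 and 52.2 CPM. Ccr6, the receptor of the Ccl20 product, rose by 2.56 to 12.4, 7.51, 4.47 and 3.16 CPM from at most 3.02 CPM.

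**Figure D4:**
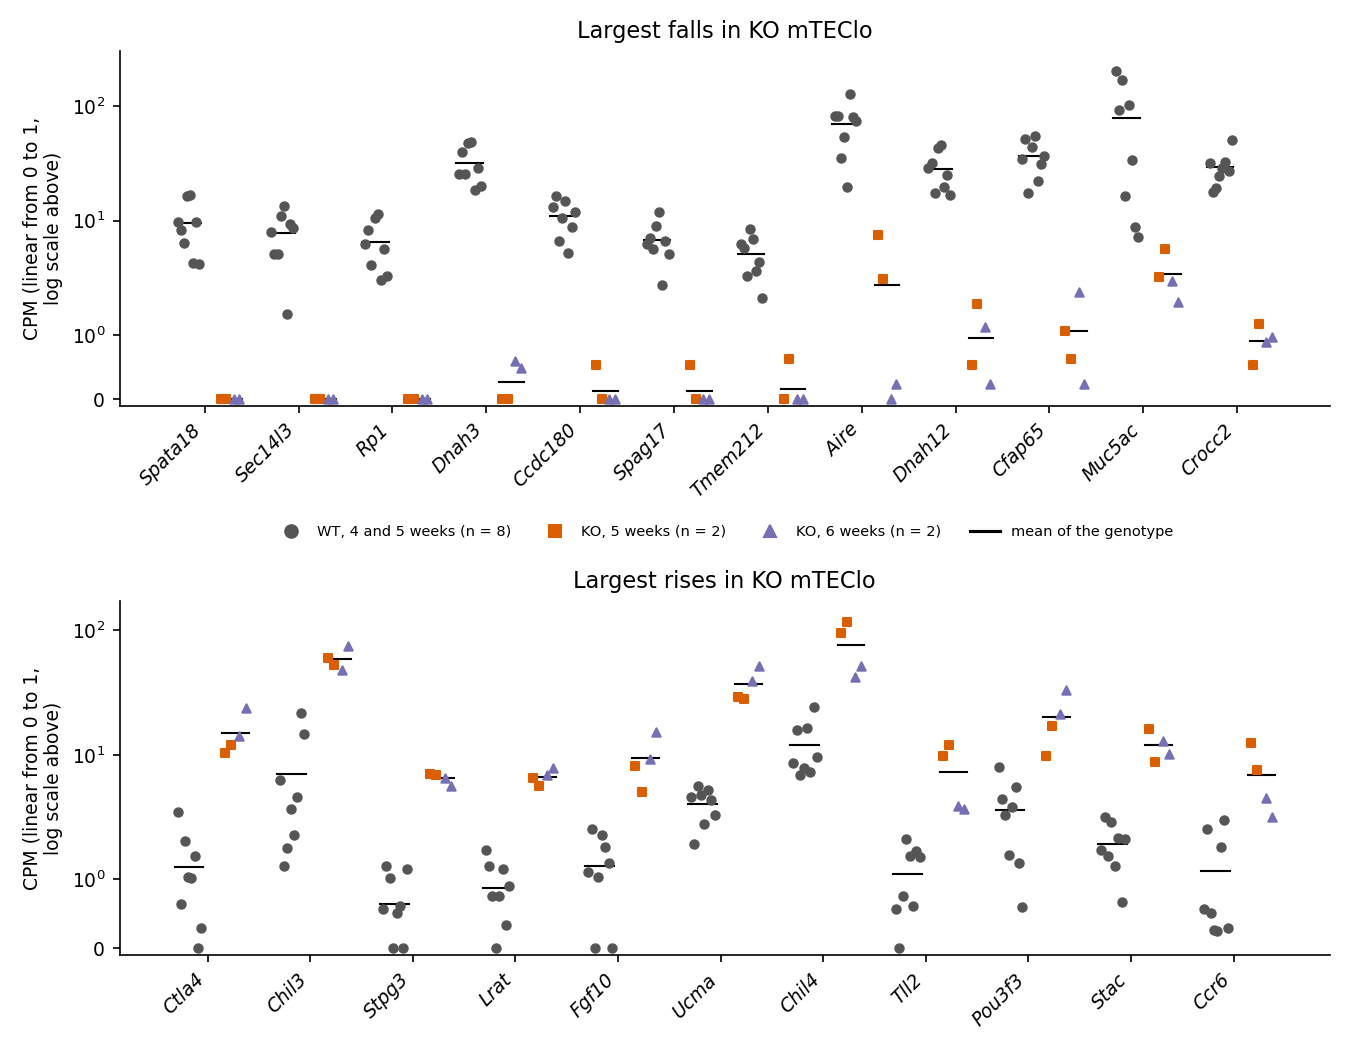
CPM of the 12 largest falls (top) and 11 of the 12 largest rises (bottom) in each mTEClo library, on an axis that is linear from 0 to 1 and logarithmic above. Grey circles are the 8 WT libraries, orange squares the 5-week and purple triangles the 6-week KO pair, bars are means, and no KO library overlaps a WT library, which the rule of choice required.

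Genes whose levels ran most alike those of Oas3, Dnah3 and Tbata were found by Pearson's r of log2 CPM over the 12 libraries, a description since the genotypes set most of it. Gbp3 (0.992), Parp12 (0.987) and Mycbp2 (0.985) were closest to Oas3. Dnah6 (0.986), Spag16 (0.986) and Dynlrb2 (0.985), a dynein light chain, were closest to Dnah3. Gadd45g (0.980), Prdx3 (0.974) and Pom121 (0.972) were closest to Tbata. All 9 changed in the direction of the gene they resembled, with the smallest change in Mycbp2, a large ubiquitin ligase, at -0.34 (680 to 727 CPM in WT and 547 to 563 CPM in KO).

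The KO effect in mTEClo was then set beside that in mTEChi, measured in other libraries. The labels do not say whether libraries of the 2 gates share mice, and the model treats them as independent. In mTEChi 4966 genes rose (25.7%) and 5400 fell (28.0%), but all 4 KO mTEChi libraries lacked mitochondrial counts, which in that gate cannot be told apart from genotype. Rises in both gates covered 1395 genes, 60.3% of the mTEClo risers and 28.1% of the mTEChi risers. Falls in both covered 1127 genes, 60.2% of the mTEClo fallers and 20.9% of the mTEChi fallers. Opposite calls were made for 265 genes higher in mTEClo and 116 lower in mTEClo. The difference of the 2 effects, tested in the same fit, passed for 4792 genes (24.8%), more positive in mTEClo for 2699 and more negative for 2093.

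Of the 51 interferon-stimulated genes 32 differed between the gates, 21 with a smaller fall (or a larger rise) in mTEClo and 11 with a larger fall. Oas3 fell more in mTEClo than in mTEChi (-1.74 and -0.81, difference -0.93, adjusted p = 0.0003), and so did Mx1 (-1.61 and -0.63) and Trim30a (-1.32 and -0.03). Gbp3 and Rsad2 fell less in mTEClo (-1.33 and -2.13, difference 0.80, and -1.31 and -4.46, difference 3.16). Of the 70 cilium genes 30 differed between the gates, against 24.8% of all genes, 14 more positive and 16 more negative in mTEClo. For Dnah3 the difference was not called (-6.21 and -5.69, difference -0.52, SE 1.83, adjusted p = 0.878). Its KO values were at most 0.596 CPM in mTEClo and 0.685 CPM in mTEChi, too near 0 to compare the 2 falls in size. Foxj1 fell in mTEClo and was not called in mTEChi (-1.84 and 0.14, difference -1.98, adjusted p = 0.00132). Tbata rose in both and more in mTEClo (1.19 and 0.59, difference 0.60, adjusted p = 0.0131).

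Secretory, matrix and muscle genes also gave wide contrasts between the gates. Chil3 rose by 3.50 in mTEClo and changed by -3.18 in mTEChi (difference 6.69, adjusted p = 3.8e-06), and Acta1 by 1.71 and -2.54 (difference 4.25, adjusted p = 0.00028). By smallest p, Sparc and Fbln2, both matrix proteins, led the genes more positive in mTEClo. Sparc was at 88.4 to 128 CPM in WT and 99.1 to 140 CPM in KO mTEClo, and at 67.5 to 92.1 CPM in WT and 1.67 to 3.77 CPM in KO mTEChi. Fbln2 had 7.89, 14.5 and 18.4 CPM in WT and 46.6, 33.2, 38.4 and 33.0 CPM in KO mTEClo, against 22.8 to 42.5 CPM in WT and 0 to 0.818 CPM in KO mTEChi.

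More negative in mTEClo was first of all Lrp1b, a large endocytic receptor. It had 116, 127 and 139 CPM in WT and 31.9, 38.2, 31.9 and 37.6 CPM in KO mTEClo (-1.88, SE 0.15), and rose by 1.13 in mTEChi, a difference of -3.01 (SE 0.19). Il18r1, a chain of the IL-18 receptor, went from 150 to 177 CPM to 69.8, 59.5, 70.3 and 74.5 CPM in mTEClo (-1.28, SE 0.09) and had a change of -0.03 in mTEChi. Ltbp2, a matrix protein, changed by -0.93 in mTEClo and 0.60 in mTEChi.

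**Figure D5:**
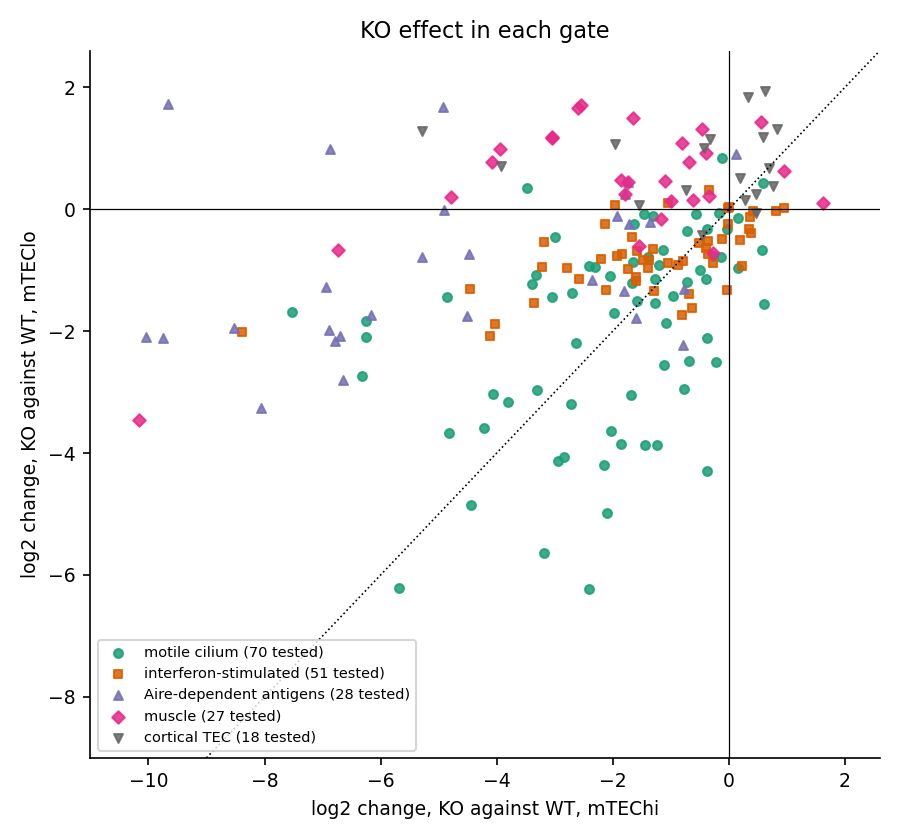
Log2 change of KO against WT in mTEChi (horizontal axis) and mTEClo (vertical axis) for the tested members of 5 gene lists, with the dotted line marking equal changes. Cilium genes (green circles) lie mostly in the lower left, on both sides of the line. Many Aire-dependent antigens (purple triangles) lie further from 0 in mTEChi than in mTEClo. Muscle genes (pink diamonds) lie mostly above 0 in mTEClo and below 0 in mTEChi.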

How the data were processed

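Per the labels' protocols, RNA of sorted mTECs was reverse transcribed with not-so-random primers beside oligo dT, and the cDNA was tagmented with Tn5. Such libraries keep no strand, so overlapping genes can exchange reads. The authors deposited raw read counts per Ensembl gene, and per the submitters' processing notes used HTSeq 0.11.2, edgeR, Picard 2.21.1, fastp 0.20.0, SAMtools 1.9 and STAR 2.7.3a on GRCm38. Their normalized table was not used. Symbols came from GENCODE vM21 for all 53402 identifiers, and 797 symbols of 36 gene lists matched.

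Genes were filtered with filterByExpr (minimum count 10), scaled with TMM and fitted with edgeR 4.0.16 (R 4.3.3, glmQLFit, robust) over all 23 libraries in 1 model, with group means and a sex term. Benjamini-Hochberg adjustment covered all tested genes. An SE is the log2 change over the square root of F. Principal components used 2000 genes with a prior count of 2. The scripts were tested on simulated data. The members, lists and tests were chosen with earlier results of these data known, and the alternatives are in the closing section.

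Genes were named by rule. It took Aire, Oas3, Dnah3, Tbata and fixed genes (among them Fezf2, Ins2, Cd80, Ccl21a, H2-Aa, Foxj1, Pou2f3, Krt10 and Irf7), and the 12 largest falls and rises among protein-coding genes with a name that passed, with no overlap and a mean of at least 5 CPM on the higher side. It also took up to 4 passing members with the smallest p per list, 6 genes per direction of the difference between gates, and 3 genes most like each of Oas3, Dnah3 and Tbata. Some of the genes so chosen are not reported here. Other list members and gate markers in the text were chosen after their values were seen. With 3 counts over a group as floor, folds against 0 are lower bounds, and intervals for 1 to 3 counts are exact at 95% and cover counting error only.

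No pair of libraries of a group agreed within sampling noise (smallest chi-square per degree of freedom 1.40).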

Additional observations from a re-analysis of the deposited data

Results flagged for a closer look

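Of 312 groups of library values looked at (2 mTEClo groups for each of 156 named genes), 23 had 1 library apart from the others by Dixon's criterion. In 5 of these the other 3 libraries were at 0, where any count meets the criterion by construction, so a chance rate bears only on the other 18, out of 303 groups with counts in at least 2 libraries, and chance gives about 1 in 20. Among WT mTEClo libraries the highest value stood apart for Crocc2 (51.0 CPM), E2f5 (21.1), Gng13 (9.42), Chrng (4.72), Mucl2 (5.19), Prss16 (48.2), Psmb11 (14.4), Zfp36 (75.2), Rag1 (10.2), Pdgfrb (16.3), Flt1 (31.6), Slc4a1 (8.62), Otof (32.7) and Prdx3 (63.0). The lowest stood apart for Parp14 (456 CPM) and H2-T24 (32.4). In KO mTEClo the highest stood apart for Ccdc180 (0.541 CPM), Spag17 (0.541), Tmem212 (0.626), Tff1 (0.298) and Slc4a1 (0.298), each with the other 3 libraries at 0, and for E2f5 (28.4) and Reg3g (125). Psmb11's highest WT value was in replicate 1.

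The difference of the KO effect between the gates is listed for 12 genes, the 6 per direction with the smallest p. They were named by this same test in the same model, and other named genes, such as Oas3, Chil3 and Tbata, passed it as well. The KO effect was more negative in mTEClo for Lrp1b (-3.01), Cxcl16 (-1.39), Ptpn14 (-1.42), Atxn1 (-1.57), Ltbp2 (-1.54) and Il18r1 (-1.25). It was more positive for Sparc (5.16), Fbln2 (8.52), Nrxn3 (5.92), Ucma (4.23), Myof (2.09) and Otof (6.20), all as log2 differences. All KO mTEChi libraries lacked mitochondrial counts, and the part of that in these differences was not tested.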

How the results depend on the processing

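Of 156 named genes, 36 lost their call with an age term, 33 with 5-week libraries only, 22 with a term for libraries without mitochondrial counts and 22 without the 6-week KO pair. Krt10, Serpinb6a and Muc5ac were among those lost with an age term (adjusted p = 0.155, 0.208 and 0.159), and Foxj1, Tmem212 and Pou3f3 among those lost at 5 weeks. Higher genes numbered 1461 with 5-week libraries only, 825 with an age term, 1228 at an adjusted p under 0.01, 825 with over 2-fold as well, and 1409 among libraries of under 2000000 counts, a depth split chosen after seeing the data. Lower genes numbered 1242, 679, 1012 and 681 under the first 4 of these and 1810 under the fifth. Libraries of over 2000000 counts gave 2276 higher and 2186 lower, and DESeq2 gave 2442 and 1887. Without 1 library at a time, or 1 KO pair, or with a term for libraries without mitochondrial counts, higher genes ranged from 1747 to 2478, lower genes from 1379 to 2324, genes differing between gates from 4194 to 5514, fallen cilium genes from 49 to 53, fallen interferon-stimulated genes from 36 to 39 and Aire's change from -8.65 to -3.67. With a replicate block, 2257 genes were higher and 2022 lower, 52 cilium and 36 interferon-stimulated genes fell, and no named gene changed sign, though E2f5, Stra8, Sox18 and Egfl7 lost their call and Cenpe gained a call. Correlations of KO and WT deviations with the same number over 11828 genes were 0.124, 0.107, 0.0902 and 0.214. Of the 4 KO libraries, 0 matched their own number best. This check bears on KO against WT libraries only. Whether mTEClo and mTEChi libraries came from the same mice is not said by the labels and was not tested. The difference between gates held 2856 genes at an adjusted p under 0.01 and 2614 with over 2-fold, and 14 interferon-stimulated genes fell by over 2-fold. Fallen cilium genes numbered 36 at 5 weeks and 36 with an age term, and fallen interferon-stimulated genes 36 and 35.

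Signs turned for 8 named genes, none of them called in the main comparison. Without the 5-week KO pair Fezf2 came to -0.0084, Cd80 to -0.26 and H2-Aa to -0.25, and with over 2000000 counts Cd80 to -0.14 and H2-Aa to -0.037. Ccl21a came to 0.59 with 5-week libraries, 0.016 with DESeq2, 0.0090 with RLE factors, 0.27 with an age term, 0.020 without the sex term, 0.43 with the mitochondrial term and 0.43 without the 6-week KO pair, and to -0.17 to 0.17 without single libraries. Cenpe came to 0.46 with 5-week libraries, 0.060 under 2000000 counts, 0.17 with the mitochondrial term and 0.17 without the 6-week pair, and Ptpn14 to 0.026 and 0.021 under the last 2. Atxn1 came to -0.23 with 5-week libraries, -0.17 with an age term, -0.18 under 2000000 counts, -0.21 with the mitochondrial term, -0.22 without the 6-week pair and -0.013 to 0.18 without single libraries (-0.0046 and -0.013 without KO replicates 3 and 4). Sparc came to -0.23, -0.20, -0.013 and -0.019 with 5-week libraries, an age term, the mitochondrial term and without the 6-week pair. The cause was not tested.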
